A study of Mus musculus with 10 samples.

Results

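The genes described here are 27 members of the cholesterol synthesis pathway and its control by SREBP2, out of 23847 loci in a table of liver transcript levels. They were taken by symbol: 19 enzyme genes from acetoacetyl-CoA to cholesterol, 6 genes for SREBP2 and the proteins that hold or cut it, and 2 genes of sterol transport. All 27 were found, at 1 locus each, and 26 had a mean of at least 1 FPKM (read fragments scaled to transcript length and to the total of the library) and were tested. The member not tested was Npc1l1, the sterol uptake transporter, which was listed at the table's lowest value, 0.001 FPKM, in all 6 libraries.

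The 6 libraries came from mouse livers collected 40 h after partial hepatectomy, an operation that removes most of the liver and makes the remaining hepatocytes divide. All animals carried floxed Arid1a (genotype Arid1a Fl/Fl), on a strain given as C57/B6 and 129 mix, at postnatal day 90. The 3 WT libraries had no Cre. The 3 KO libraries also carried Alb-cre, a Cre recombinase under the albumin promoter that deletes the floxed gene in hepatocytes. Which other liver cells lost the gene was not measured. ARID1A is part of SWI/SNF, a complex that remodels chromatin. The sample titles name only WT and KO groups, before and after hepatectomy, and no separate group with Alb-cre and an intact Arid1a. The 4 libraries from livers before hepatectomy were not analysed here, so no response to the operation was computed. Nothing in the labels says that each library is a separate mouse, and p-values may therefore measure only the spread between these libraries.

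Cells build cholesterol from acetyl-CoA through mevalonate, isoprenoid diphosphates, squalene and lanosterol, and the liver is a main site of this synthesis. SREBP2 is a membrane-bound transcription factor of the endoplasmic reticulum. When sterols are scarce, its escort SCAP carries it to the Golgi, where the proteases encoded by Mbtps1 and Mbtps2 release the part that enters the nucleus and activates most genes of the pathway. When sterols are plentiful, the INSIG proteins hold SCAP back.

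The promoters of 23 of the 27 members were in the RefSeq table (GRCm38.p6), which gives 250 bases before each start site and 50 after it. Each window was searched on both strands for TCACCCCAC, a core of the sterol regulatory element that SREBP binds, for its shorter form CACCCCAC, for CCAAT, the box bound by NF-Y, and for CACGTG, the E-box. The shorter form lies within the longer one. The longer core was in 1 of the 23 members, Hmgcs1, in 0.551% of all 32851 promoters and in 0.779% of the 8083 genes tested here that have a promoter in the table. The shorter form was in 2 members, Hmgcs1 and Acat2, in 2.87% of all promoters and in 3.69% of those tested genes. CCAAT was in 19 of the 23 members (82.6%), in 37.4% of all promoters and in 43.9% of those tested genes. The E-box was in 5 members (21.7%) in 7.15% of all promoters and in 12.1% of those tested genes. The member shares are counted per gene, as are those of the tested genes. Only exact matches were counted, and Fdps, Fdft1, Sqle and Stard4 had no window to search. A match is a description of the letters, and SREBP binding was not measured.

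The bases before the start site are shown 5′ to 3′ for 4 genes, with the 2 SREBP cores and CCAAT, on either strand, in capitals. Hmgcs1 (chr13:119690101-119690350, plus strand), Idi1 (chr13:8885356-8885605, plus strand) and Sc4mol (chr8:64733579-64733828, minus strand; Msmo1 in RefSeq) are shown because they had the lowest KO minus WT differences among the 26 genes with all 6 libraries in the fit. Acat2 (chr17:12960726-12960975, minus strand) is shown because it was the other gene with the shorter core and had a log2 difference of 0.11. Its KO libraries stood in the same order as theirs, but between 90.0% and 126% of the WT mean.
Hmgcs1: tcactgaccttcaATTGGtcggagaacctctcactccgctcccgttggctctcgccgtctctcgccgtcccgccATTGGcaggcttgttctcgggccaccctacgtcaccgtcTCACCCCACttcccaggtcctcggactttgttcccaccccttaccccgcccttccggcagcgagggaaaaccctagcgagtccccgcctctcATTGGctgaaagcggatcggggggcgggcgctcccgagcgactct
Idi1: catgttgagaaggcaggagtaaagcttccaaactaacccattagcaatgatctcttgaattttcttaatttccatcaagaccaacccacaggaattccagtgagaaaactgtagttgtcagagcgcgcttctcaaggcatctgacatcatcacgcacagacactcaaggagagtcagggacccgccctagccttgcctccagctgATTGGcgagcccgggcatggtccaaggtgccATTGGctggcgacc
Sc4mol: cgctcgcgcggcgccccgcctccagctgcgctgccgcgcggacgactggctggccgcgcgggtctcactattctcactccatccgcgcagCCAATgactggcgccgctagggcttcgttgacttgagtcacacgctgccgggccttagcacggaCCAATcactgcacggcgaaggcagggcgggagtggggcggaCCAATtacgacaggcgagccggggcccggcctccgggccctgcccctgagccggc
Acat2: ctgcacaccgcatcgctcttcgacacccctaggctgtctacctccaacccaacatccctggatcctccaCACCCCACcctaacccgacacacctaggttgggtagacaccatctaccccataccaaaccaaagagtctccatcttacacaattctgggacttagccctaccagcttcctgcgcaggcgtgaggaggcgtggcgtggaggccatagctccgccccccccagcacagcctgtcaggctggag
The window of Hmgcs1 holds 1 longer core, 137 bases before the start site, beside CCAAT boxes read on the other strand. Idi1 and Sc4mol hold CCAAT boxes and no SREBP core in these letters. Acat2 holds the shorter core 181 bases before its start site and no CCAAT. The NF-Y box was also found for Ggps1, Insig2 and Ebp, whose KO libraries stood in another order than those of Hmgcs1, Idi1 and Sc4mol. Whether the box goes with the level was not tested.

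Arid1a itself was 8.68, 8.45 and 8.49 FPKM in WT replicates 1, 2 and 3, against 4.41, 5.57 and 6.15 in KO replicates 1, 2 and 3, so every KO library lay below every WT library. Its log2 difference was -0.59 (SE 0.15, limma adjusted p = 0.207). FPKM summed to between 409142 and 495209 per library, and depth relative to WT replicate 1 ranged from 0.844 to 1.2. The median log2 difference of all 10956 genes tested was 0.15, so values of the pathway are also given relative to that median. KO replicate 2 stood apart from the other 5 libraries on principal component 2 (27.3% of the variance). The 8 hepatocyte markers were all detected, and their summed level was 42000 to 47200 FPKM in WT, against 46900, 36600 and 38800 in KO replicates 1, 2 and 3. Of other cell types, the 8 Kupffer cell and macrophage markers summed to 68.9 to 95.0 FPKM in WT, against 76.7 to 132 in KO, the 6 endothelial markers to 37.5 to 59.8 and 42.5 to 61.8, the 6 stellate and fibroblast markers to 102 to 114 and 81.9 to 130, and the 5 cholangiocyte markers to 12.1 to 21.1 and 12.5 to 28.9. Red blood cell markers summed to 31.5 to 39.0 FPKM in WT, against 13.7, 21.3 and 58.9 in KO replicates 1, 2 and 3, so that every KO library's sum lay outside the WT range. The sum counts Hba-a1 and Hba-a2 at more than 1 locus each. At 1 such locus Hba-a1 was 3.67 in KO replicate 1 against at most 0.0271 in WT, and Hba-a2 was 0.0107 against 10.7 to 11.2. Hbb-bs had every KO library outside its WT range, whereas Alas2 was 4.15 to 7.96 in WT, against 5.11, 7.12 and 8.34 in KO. Neutrophil markers summed to 10.3 to 32.5 in WT, against 12.9 to 23.8 in KO. None of these lists had a marker at the floor in all libraries, and T, NK, B and plasma cell markers summed to at most 1.66 FPKM in any library.

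Most cholesterol synthesis genes were lower in KO replicate 2 and, to a smaller extent, in KO replicate 3, while KO replicate 1 was near WT levels for most of them. Over the 19 enzyme genes, the median level was 34.8% of the WT mean in KO replicate 2, 58.6% in KO replicate 3 and within 1% of the WT mean in KO replicate 1. Single enzyme genes ran from 68.3% to 128% in KO replicate 1. Over all genes tested, the medians were higher, at 109%, 114% and 110% in KO replicates 1, 2 and 3. The enzyme genes summed to 1246, 944 and 1272 FPKM in WT replicates 1, 2 and 3 and to 1113, 345 and 726 in KO replicates 1, 2 and 3. In bulk tissue, fewer cells of a type and less RNA per cell cannot be told apart.

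No member passed the test between genotypes. The smallest adjusted p among the 26 was 0.234 (limma, Benjamini-Hochberg over all genes tested), and 0.119% of all genes tested passed 0.05. At an unadjusted p under 0.05, 4 members were lower in KO (Sqle, Lss, Mvk and Sc4mol) against 3.99% of all genes, and 0 were higher against 11.2%. The log2 difference was below 0 for 21 of the 26, against 30.3% of all genes. The median difference of the 26 lay 0.65 below that of all genes (-0.51 against 0.15), and without KO replicate 2 it lay 0.34 below.

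The early enzymes turn acetyl units into the isoprene unit isopentenyl diphosphate. Hmgcs1, which makes HMG-CoA, was 172, 155 and 184 FPKM in WT replicates 1, 2 and 3, against 156, 25.7 and 65.1 in KO replicates 1, 2 and 3. KO replicate 1 lay inside the WT range, KO replicate 3 was at 38.3% of the WT mean and KO replicate 2 at 15.1%. The log2 difference was -1.39 (SE 0.59, limma adjusted p = 0.330), and it ranged from -2.02 without KO replicate 1 to -0.74 without KO replicate 2.

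Idi1, the isomerase that makes the reactive isoprene unit, had a log2 difference of -1.43 (SE 0.64, limma adjusted p = 0.343), the lowest of the 26 with all libraries. Without KO replicate 2 it was -0.67, and Insig2 (-0.91), Sc4mol (-0.89), Sqle (-0.83), Lss (-0.82) and Hmgcs1 (-0.74) were then lower. It was 148, 115 and 156 FPKM in WT, against 116, 16.9 and 65.3 in KO replicates 1, 2 and 3. Its level in KO replicate 2 was 12.1% of the WT mean, the lowest such share of any member tested in any library. KO replicate 1 lay just above the lowest WT library, so the groups overlapped.

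Mvk, mevalonate kinase, was 27.5, 15.5 and 27.3 FPKM in WT, against 16.0, 8.16 and 13.7 in KO (log2 difference -0.85, SE 0.31, limma adjusted p = 0.306). Here WT replicate 2 lay slightly below KO replicate 1. Pmvk and Mvd, the next kinase and the decarboxylase, were 87.3% and 76.6% of the WT mean on average in KO, with KO replicate 2 at 41.7% and 39.9% and KO replicate 1 at 128% and 110%. Acat2, the cytosolic thiolase that joins 2 acetyl-CoA before the step of Hmgcs1, was between 90.0% and 126% of the WT mean in the KO libraries. Its log2 difference of 0.11 (SE 0.21) became -0.04 after rescaling each library by the median of its ratios to the gene means (median-of-ratios), so it has no direction here.

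At the branch of the isoprenoids, the enzymes had different patterns. Fdps, which makes farnesyl diphosphate for the sterol path, was 19.1% of the WT mean in KO replicate 2, 70.0% in KO replicate 3 and equal to that mean, within 1%, in KO replicate 1 (log2 difference -0.93, SE 0.58). Without KO replicate 2 the difference of Fdps was -0.23. Ggps1, which lengthens farnesyl to geranylgeranyl diphosphate for protein prenylation, was 125%, 136% and 112% of the WT mean in KO replicates 1, 2 and 3. Its KO libraries all lay above its WT libraries, which held for 2 of the 26 members (Ggps1 and Mbtps1) and for 16.7% of all genes. After rescaling it held for 0 members, against 8.0% of all genes. Its level was low, 1.57 ± 0.0765 FPKM in WT, against 1.95 ± 0.190 in KO (n = 3 libraries a group, ± SD), and its log2 difference of 0.20 (SE 0.15) lay 0.05 above the median of all genes. A test of the difference between Fdps and Ggps1 was not made.

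From squalene onward, 10 of the 11 enzyme genes had a log2 difference below 0, against 30.3% of all genes. Their median lay 0.85 below that of all genes, and 0.54 below it without KO replicate 2. Sqle (chr15:59315092-59331193), squalene epoxidase, a rate-limiting step, was 62.9, 48.8 and 53.3 FPKM in WT, against 37.5, 14.3 and 24.6 in KO replicates 1, 2 and 3. All KO libraries lay below all WT libraries, and the mean was 2.16 times higher in WT. Sqle had the smallest p of the members, with a log2 difference of -1.17 (SE 0.33, limma adjusted p = 0.234).

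Sc4mol, the methyl sterol oxidase now named Msmo1, was 133, 96.9 and 136 FPKM in WT, against 89.5, 22.5 and 46.9 in KO, again without overlap. Its log2 difference was -1.38 (SE 0.47, limma adjusted p = 0.284), and -0.89 without KO replicate 2. Sqle, Sc4mol and Srebf2 were the 3 members whose KO libraries all lay below the WT libraries, 11.5% of the 26 against 5.44% of all genes. After median-of-ratios rescaling they were 8 (also Hmgcs1, Idi1, Lss, Mvk and Scap), 30.8% against 9.67%.

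Lss, lanosterol synthase, which closes the sterol rings, was 24.5, 18.1 and 25.7 FPKM in WT, against 18.6, 6.88 and 8.02 in KO (log2 difference -1.07, SE 0.36, limma adjusted p = 0.279). KO replicates 2 and 3 were close together here, at 30.2% and 35.2% of the WT mean, whereas KO replicate 1 lay just above WT replicate 2. The Lss locus overlaps that of 4930483K19Rik, so some of its reads are uncertain.

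Cyp51, the lanosterol demethylase, was 67.6, 51.6 and 59.7 FPKM in WT, against 67.0, 10.8 and 28.1 in KO (log2 difference -1.08, SE 0.58). Nsdhl, which removes the methyl carbons with Sc4mol, was 45.7, 30.6 and 43.3 in WT, against 33.9, 6.79 and 21.6 in KO (log2 difference -1.14, SE 0.53). For both genes KO replicate 2 was under 20% of the WT mean and KO replicate 1 was inside the WT range. Limma's adjusted p was 0.403 for Cyp51 and 0.354 for Nsdhl. Without KO replicate 2 the differences were -0.44 and -0.52, and without KO replicate 1 that of Cyp51 was -1.70.

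For the other enzymes named here the groups overlapped. Dhcr7, the final reductase of one route to cholesterol, was 50.3, 29.5 and 42.5 FPKM in WT, against 39.5, 15.9 and 22.1 in KO (log2 difference -0.70, SE 0.36, and -0.42 without KO replicate 2). Hsd17b7, the keto reductase that works with Nsdhl, was 22.0, 17.6 and 24.3 in WT, against 21.1, 12.3 and 11.5 in KO (log2 difference -0.52, SE 0.26). Hsd17b7 was the enzyme gene in which KO replicate 3, and not KO replicate 2, was lowest. Sc5d, the sterol desaturase, and Fdft1, squalene synthase, were 40.8% and 32.6% of the WT mean in KO replicate 2 and 72.1% and 74.5% in KO replicate 3. Fdft1 overlaps the locus of Ctsb.

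From squalene onward, only Tm7sf2 and Ebp were above the WT mean in KO replicate 3, and Tm7sf2 still had the same order of KO libraries as most enzymes. Tm7sf2, a sterol reductase that acts after Cyp51, was 53.0% of the WT mean in KO replicate 2 and 124% and 112% in KO replicates 1 and 3. Its log2 difference was -0.12 (SE 0.32), and it was 0.24 without KO replicate 2. Ebp, the sterol isomerase, was 75.8% of the WT mean in KO replicate 2, 123% in KO replicate 1 and 155% in KO replicate 3 (log2 difference 0.18, SE 0.28). Its difference was 0.46 without KO replicate 2 and -0.04 without KO replicate 3, so it has no direction here. KO replicate 2 was still the lowest library for both. Tm7sf2 overlaps the locus of Vps51.

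**Figure D1:**
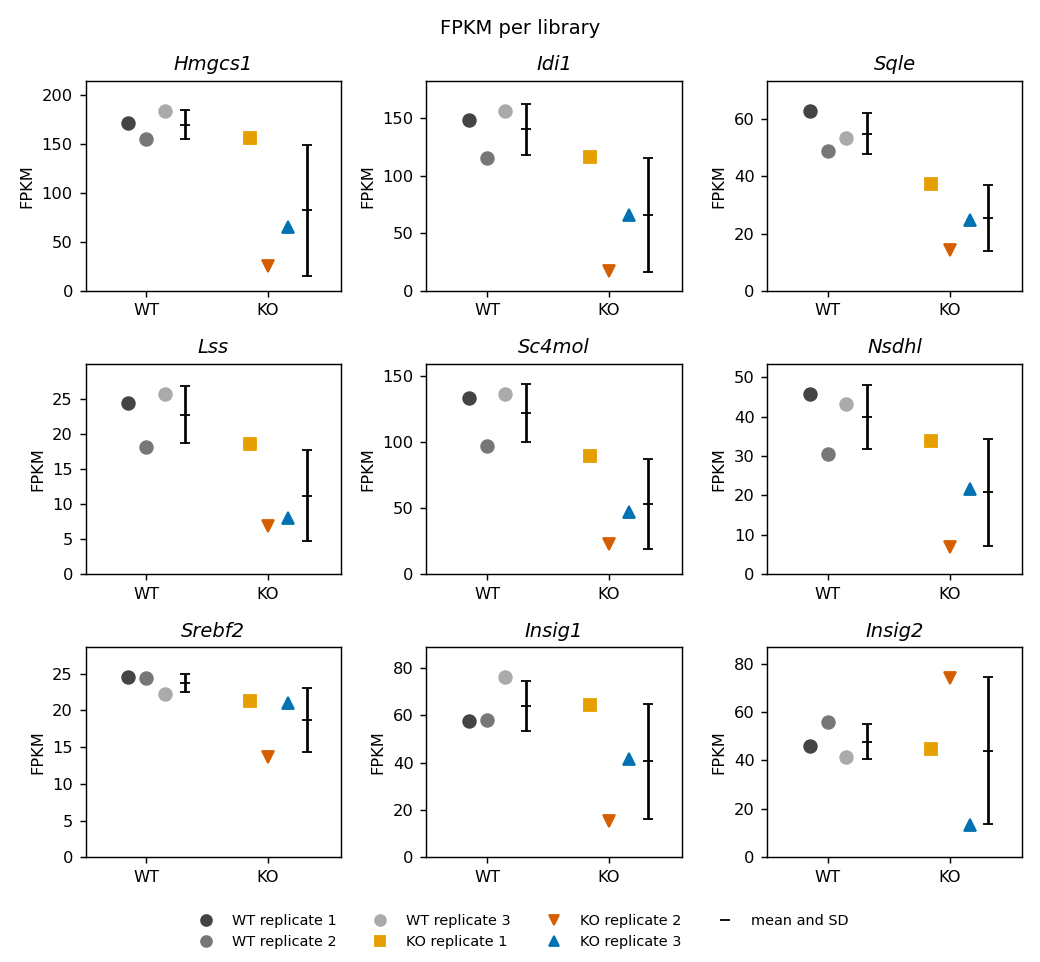
FPKM in each library for 9 members, with the group mean and SD (n = 3) beside the points. KO replicate 2 is lowest for 8 of the 9 genes and highest for Insig2, and Sqle, Sc4mol and Srebf2 show no overlap between WT and KO.

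The 6 genes of SREBP2 and its processing had a median difference 0.41 below that of all genes, 0.31 below it without KO replicate 2 and 0.09 below it without KO replicate 3. Srebf2 (chr15:82147269-82204960), which encodes SREBP2 and is itself a target, was 24.5, 24.4 and 22.3 FPKM in WT, against 21.3, 13.7 and 21.0 in KO. The KO libraries lay below the WT libraries without overlap, only just so in KO replicates 1 and 3, and KO replicate 2 was at 57.9% of the WT mean. The log2 difference was -0.35 (SE 0.20, limma adjusted p = 0.423), and without one library in turn it ranged from -0.45 to -0.16. The microRNA locus Mir33 lies within Srebf2.

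Scap, the escort, was 28.7, 27.6 and 31.3 FPKM in WT, against 26.2, 27.9 and 23.8 in KO (log2 difference -0.16, SE 0.14), with the libraries overlapping. Mbtps1, the site-1 protease, was 12.3, 13.6 and 13.1 in WT, against 16.3, 14.8 and 16.9 in KO (log2 difference 0.28, SE 0.13, limma adjusted p = 0.359). All its KO libraries lay above WT as deposited and overlapped WT after rescaling, where the difference was 0.14. Mbtps2, the site-2 protease, was 1.50, 1.96 and 2.59 in WT, against 3.48, 2.38 and 2.12 in KO, with overlap and a locus shared with Yy2.

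The paired retention genes differed in pattern. Insig1 (chr5:28071412-28078662), a direct SREBP2 target, was 57.7, 57.8 and 76.0 FPKM in WT, against 64.2, 15.5 and 41.7 in KO replicates 1, 2 and 3, the same order of KO libraries as in the enzymes (log2 difference -0.85, SE 0.48, limma adjusted p = 0.425). Without KO replicate 2 the difference of Insig1 was -0.29, and without KO replicate 1 it was -1.28. Insig2 (chr1:121304353-121332589), which in liver is transcribed largely apart from SREBP2, was 46.1, 55.8 and 41.6 in WT, against 44.9, 73.9 and 13.5 in KO. KO replicate 2 was therefore the highest library for Insig2, at 155% of the WT mean, and KO replicate 3 the lowest, at 28.2%. Its log2 difference of -0.40 (SE 0.56) changed to 0.28 without KO replicate 3, so it has no direction here.

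Stard4, a cytosolic sterol carrier and SREBP2 target, was 19.7, 19.6 and 27.1 FPKM in WT, against 21.8, 9.86 and 16.4 in KO (log2 difference -0.49, SE 0.29, limma adjusted p = 0.443, and -0.20 without KO replicate 2). It showed the same order of KO libraries as the enzymes, with KO replicate 1 inside the WT range. The remaining member, Npc1l1, gave no value above the floor in either group.

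**Figure D2:**
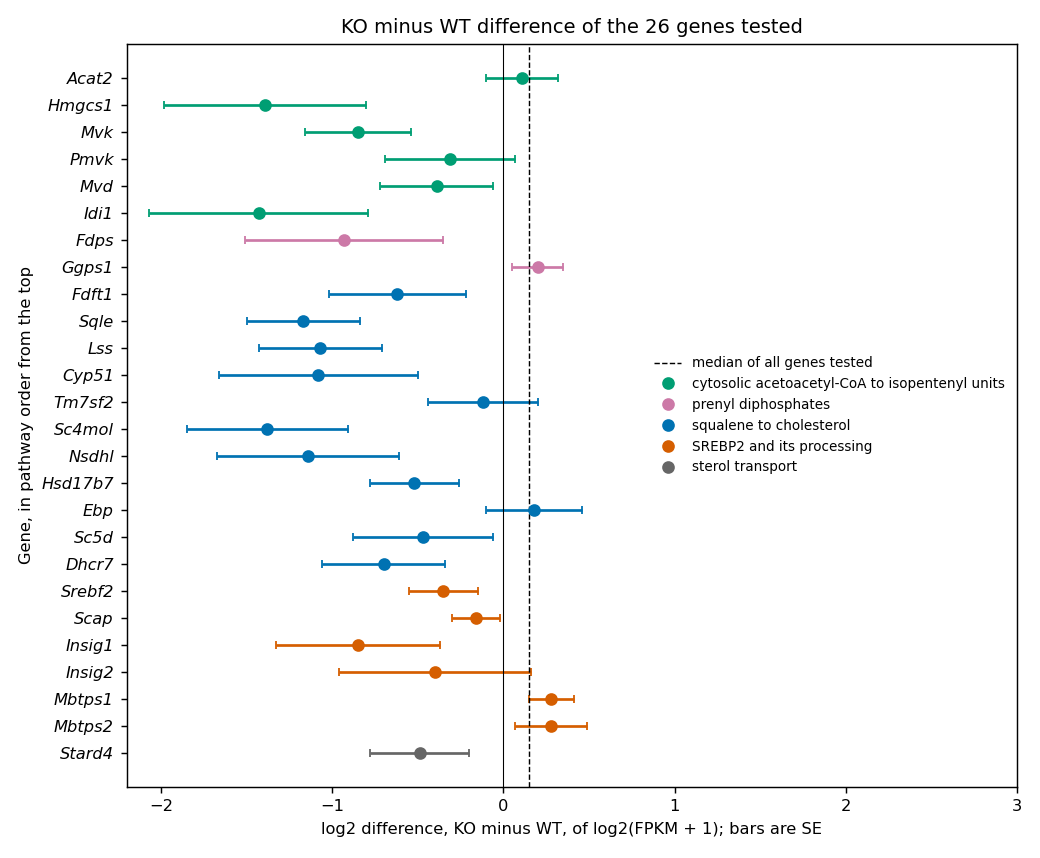
KO minus WT log2 difference of log2(FPKM + 1) with its SE for the 26 genes tested, in pathway order, where the dashed line marks the median of all genes tested (0.15). With all libraries the lowest values are those of Idi1 (-1.43), Hmgcs1 (-1.39) and Sc4mol (-1.38), which are -0.67, -0.74 and -0.89 without KO replicate 2, and Mbtps1 and Mbtps2 have the highest (0.28 each).

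The order of the libraries was shared by most members. KO replicate 2 was the lowest of the 6 libraries for 19 of the 26, against 12.4% of all genes, and for 20 after rescaling, against 19.7%. It was below 50% of the WT mean for 16 members (5.76% of all genes) and KO replicate 3 for 7 (5.03%), and KO replicate 1 for 0 (3.82%). The order KO replicate 1 over KO replicate 3 over KO replicate 2 held for 19 of 26, against 16.5% of all genes. KO replicate 1 lay below all WT libraries for 4 members, Sqle, Sc4mol, Srebf2 and Scap (18.8% of all genes).

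The WT libraries also moved in step. WT replicate 2 was the lowest of the 3 WT libraries for 20 of the 26, against 35.8% of all genes, and over the 19 enzymes its median was 82.9% of the WT mean, against 109% in each of the other 2. Across the 6 libraries, the 171 pairs of enzyme genes had a median Pearson correlation of 0.86 on log2(FPKM + 1), with 65 pairs over 0.9. These points share libraries, and most of the range comes from KO replicate 2, so this is a description. Set against the median of the other enzymes, the correlation was 0.99 for Nsdhl, 0.97 for Idi1, 0.93 for Insig1, 0.86 for Srebf2 and 0.41 for Acat2. It was 0.8 for Tm7sf2, 0.35 for Ebp, -0.11 for Insig2, -0.47 for Mbtps1 and -0.72 for Ggps1.

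Neighbouring pathways followed the cholesterol enzymes in part, and in each list 0 genes were called in either direction. Of 16 tested genes of SREBP1 and fatty acid synthesis, 13 had a difference below 0, against 30.3% of all genes, and the median was 0.38 below that of all genes. KO replicate 2 was the lowest library for 9 of the 16, against 12.4% of all genes. Fasn, fatty acid synthase, was 35.4, 29.4 and 34.0 FPKM in WT, against 24.0, 8.14 and 21.2 in KO, all KO below all WT (log2 difference -0.98, SE 0.38, limma adjusted p = 0.309), and the difference was -0.53 without KO replicate 2. Thrsp, a regulator of lipogenesis, was 28.2, 4.25 and 16.0 in WT, against 4.80, 1.96 and 3.56 in KO (log2 difference -1.69, SE 0.61). Fads2, a fatty acid desaturase, was 330, 162 and 298 in WT, against 251, 89.6 and 198 in KO. KO replicate 2 was the lowest library for these 3 genes. The list median in KO replicate 2 was 60.8% of the WT mean against 102% and 90.2% in KO replicates 1 and 3.

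The branches that draw on isoprenoids for other products had a list median of 131% of the WT mean in KO replicate 2. It was 114% and 107% in KO replicates 1 and 3. The 10 enzymes of ubiquinone, dolichol and prenyl transfer had a median difference within 0.01 of all genes. KO replicate 2 was lowest for 0 of them, against 12.4% of all genes, so with 10 genes this count is near that share. Rabggtb, a subunit of the Rab prenyl transferase, was 15.4 ± 1.01 FPKM in WT, against 19.6 ± 1.32 in KO (± SD over 3 libraries, log2 difference 0.33, limma adjusted p = 0.326). Fntb, of farnesyl transferase, was 2.23 ± 0.346 and 2.91 ± 0.307, and Coq2, of ubiquinone synthesis, was 10.1 ± 5.47 and 14.4 ± 5.34. Neither difference passed the test.

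Among 14 tested genes of cholesterol storage, uptake and efflux, 3 were lower at an unadjusted p under 0.05 (3.99% of all genes), and these 3 had every KO library below WT (5.44% of all genes). The median of the list lay 0.12 below that of all genes. Mylip, a ubiquitin ligase induced by LXR that acts on lipoprotein receptors, was 3.09, 3.05 and 2.45 FPKM in WT, against 1.65, 1.30 and 1.56 in KO (log2 difference -0.63, SE 0.16, limma adjusted p = 0.206). Abca1, the cholesterol exporter, was 38.4, 38.2 and 42.9 in WT, against 33.1, 25.3 and 27.3 in KO (log2 difference -0.47, SE 0.16, limma adjusted p = 0.287). Lrp1, a lipoprotein receptor, was 178, 168 and 177 in WT, against 137, 133 and 124 in KO (log2 difference -0.40, SE 0.15). KO replicate 1 thus lay below every WT library in these 3 genes, as it did in Sqle and Sc4mol.

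The 9 genes whose products degrade or retain sterol-regulated proteins had a median 0.08 below all genes. Erlin2 was 6.83 ± 1.23 FPKM in WT, against 9.12 ± 0.974 in KO (± SD over 3 libraries), Rnf145 was 7.15 ± 0.0509 and 5.60 ± 1.15, and Paqr3, which tethers SCAP to the Golgi, was 3.95 ± 1.24 and 2.67 ± 0.568. The 9 bile acid synthesis genes had a median 0.31 below all genes, and their list median was 51.8% of the WT mean in KO replicate 2 and 102% and 108% in KO replicates 1 and 3. Among them Cyp7b1 was 1.26, 1.77 and 3.36 FPKM in WT, against 1.66, 0.701 and 0.649 in KO. Amacr was 31.1 ± 4.52 in WT and 39.7 ± 3.43 in KO, and Baat was 44.8 ± 10.6 and 51.0 ± 13.3.

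**Figure D3:**
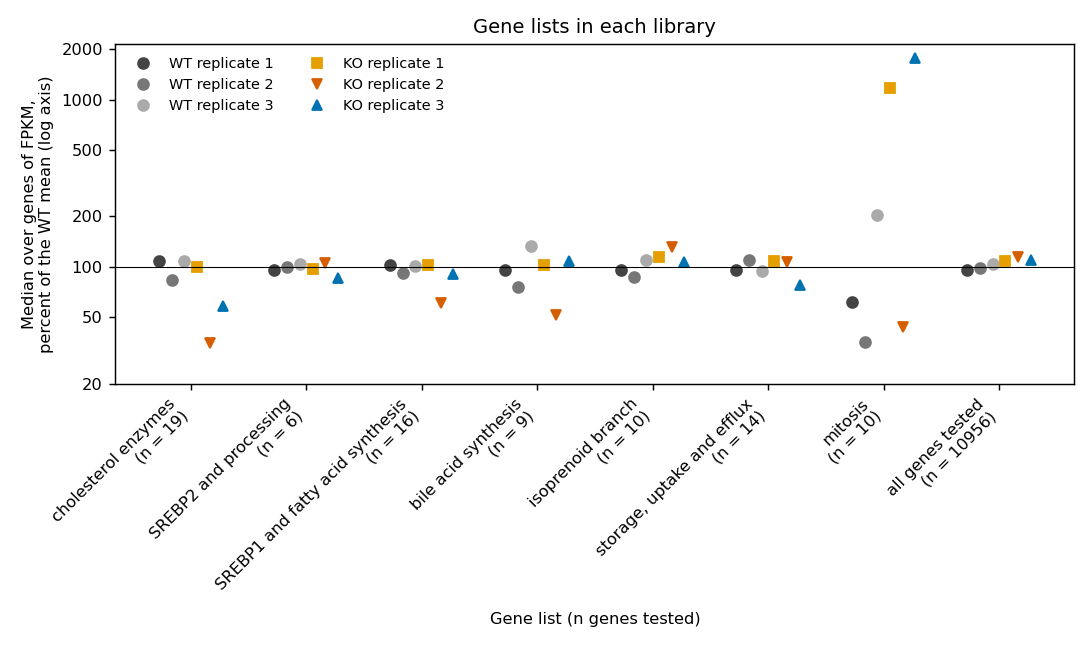
Median over the tested genes of each list of FPKM as a percent of the WT mean (log axis), for each of the 6 libraries. The cholesterol enzymes are at 34.8% in KO replicate 2 and 58.6% in KO replicate 3, and the mitosis genes are far above WT in KO replicates 1 and 3 only.

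KO replicate 2 also differed from the other KO libraries in genes outside the lists above. The 10 mitosis genes had a median of 61.5%, 35.7% and 203% of the WT mean in WT replicates 1, 2 and 3, and of 1180%, 43.9% and 1770% in KO replicates 1, 2 and 3. KO replicate 2 thus lay inside the WT range, and it was the lowest library for 2 of the 10, against 12.4% of all genes. Ube2c, which serves the anaphase-promoting complex, was 4.51, 1.22 and 4.49 FPKM in WT, against 65.2, 3.08 and 117 in KO. Ccnb1 and Ccna2, which encode cyclins, were 0.244 and 2.05 in KO replicate 2 against 31.5 and 38.1 in KO replicate 3. No mitosis gene was called with all libraries, and without KO replicate 2 Ube2c, Ccna2 and Ccnb1 were called higher (limma adjusted p = 0.0182, 0.0284 and 0.0158). KO replicates 1 and 3 both had mitosis genes far above WT, while their cholesterol enzymes had medians of 100% and 58.6% of the WT mean. Alb was 16200 FPKM in KO replicate 2 and 20900 to 29400 in the other libraries, and Apoa1 was 10600 against 4940 to 6400. Alb and Apoa1 are hepatocyte markers named outside the naming rule. KO replicate 2 was the lowest library for 3 of the 8 hepatocyte markers, against 12.4% of all genes. Hnf4a and Cps1 in KO replicate 2 lay inside their WT ranges. The part of these library differences in the cholesterol results was not tested.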

How the data were processed

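RNA from mouse liver was sequenced, per the labels' protocols after Trizol and miRNeasy extraction and with standard Illumina or Nugen library kits. TopHat, edgeR, mm9 and mm10 are listed in the submitters' processing notes with no role for each. The authors deposited FPKM for each locus and library, per the file headers. Strand handling and read totals: not given in the sources used here. Because FPKM is a share of each library, abundant transcripts shift all other values. Of 23847 loci, 312 marked LOWDATA were left out, and the listed minimum of 0.001 was set to 0. Positions are as in the file, counted from 1, and 27 of 27 member loci overlap the RefSeq gene of that name on GRCm38.p6 (mm10).

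KO was compared with WT on log2(FPKM + 1) for the 10956 loci with a mean of at least 1 FPKM over the 6 libraries, in limma 3.58.1 (R 4.3.3, trend in eBayes, two-sided, genotype only), with Benjamini-Hochberg adjustment over all of them and a threshold of 0.05. The log2 scale understates changes of low genes. The fit was tested on simulated data with 200 changed genes, a common spread for all genes and changes larger than any member's with all libraries. It does not show how the fit performs at the spread and differences of the members. Relative depth was read from the steps between low values, so that absolute depth is unknown. The exact permutation test can reach no p below 0.1 with 3 against 3. The members, gene lists and the naming rule were chosen with earlier results of these data known. The rule gives library values for the 12 members of smallest p, the SREBP2 and transport genes, and up to 3 genes of smallest p from each other list. Alternatives were another pseudocount (0.1), no filter, 2 rescalings, a replicate block and leaving out each library.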

Additional observations from a re-analysis of the deposited data

How the results depend on the processing

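With every alternative tried, 0 of the 26 members were called, and at an unadjusted p under 0.05 between 1 and 14 members passed, the most without KO replicate 1. The median difference of the members relative to all genes stayed below 0, at -0.71 with a pseudocount of 0.1, -0.57 without the filter, -0.67 after median-of-ratios rescaling and -0.65 after quantile normalization, and from -0.96 to -0.34 with 1 library left out. Of 286 member differences under alternatives, 277 kept their direction and 9, in 5 members, did not. Acat2 became -0.04 after median-of-ratios rescaling and after quantile normalization, and ranged from -0.01 to 0.27 with 1 library left out. With 1 library left out, Tm7sf2 ranged from -0.33 to 0.24 (0.02 without WT replicate 1), Pmvk from -0.64 to 0.12, Ebp from -0.04 to 0.46 and Insig2 from -0.91 to 0.28. Baat, in the bile acid list, ranged from -0.02 (without KO replicate 2) to 0.36. The cause of these changes was not tested.

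Over all genes, 13 were called, 2 higher and 11 lower in KO, against 0 and 13 after median-of-ratios rescaling and 0 and 14 after quantile normalization. Without the filter 6 were called. The count ranged from 0 (without WT replicate 1, with 940 genes at an unadjusted p under 0.05) to 242 (without KO replicate 2, 197 higher and 45 lower, so that most calls were then higher), and it was 2 without WT replicate 2 or KO replicate 3 and 3 without WT replicate 3. With the replicate block it was 47, with 9 members at an unadjusted p under 0.05. Whether the shared replicate numbers pair the libraries cannot be settled from 3 libraries a group. Deviations from the group means correlated at -0.084, 0.155 and 0.163 for numbers 1, 2 and 3. KO replicates 2 and 3 correlated best with the WT library of their own number, and KO replicate 1 with WT replicate 3 (0.175). Depth is known only relative to WT replicate 1, and Ggps1 and Mbtps2, near 2 FPKM, had the lowest levels among the members tested.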

Other observations

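Cyp7a1 and Cyp8b1, which encode enzymes of bile acid synthesis from cholesterol and were chosen after their values were seen, were low together in WT replicate 2. Cyp7a1 was 35.8, 1.47 and 54.1 FPKM in WT replicates 1, 2 and 3, against 11.2, 11.4 and 44.4 in KO replicates 1, 2 and 3. Cyp8b1 was 34.4, 2.58 and 52.3 in WT, against 9.59, 6.80 and 36.7 in KO. In both genes KO replicate 3 was the highest KO library, unlike in the cholesterol enzymes other than Ebp. The spread within WT was larger than the difference between groups.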
